A study of Mus musculus with 4 samples.

Results

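The Hox genes of the mouse, homeobox transcription factor genes that lie side by side in 4 clusters, were described by the accessibility of their chromatin in inflamed epidermal keratinocytes. Members were taken by name: 38 protein-coding Hox genes of HoxA on chromosome 6, HoxB on chromosome 11, HoxC on chromosome 15 and HoxD on chromosome 2, out of 21951 protein-coding genes in the mm10 GENCODE annotation. The rule that names them uses no measured value. Overlapping ATAC-seq peaks of all libraries (at least 1 shared bp) were joined into 82641 regions. Of these, 48 lay in the 4 cluster windows, each running from the first to the last of these Hox genes with 20 kb added on either side.

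ATAC-seq marks open chromatin by the places where the Tn5 transposase can insert sequencing adapters. The 4 libraries had been made from keratinocytes of female C57BL/6 mice aged 8 to 12 weeks, 2 from wild-type mice (WT 1 and WT 2) and 2 from mice without Mapk8 in the epidermis (Mapk8-KO 1 and Mapk8-KO 2). Mapk8 encodes the kinase JNK1, and per the study's methods the floxed gene was removed by a Cre recombinase under the keratin 14 promoter, which is active in basal keratinocytes and related epithelia. Per the methods controls were littermates, but the alleles behind the wild-type label are not given. Mice of both genotypes had received a cream with 5% imiquimod, which inflames the skin, for 8 days, and the cells had been sorted as EpCam+ CD49f high, with CD45, CD31 and CD140a, the products of Ptprc, Pecam1 and Pdgfra, stained in the same sort. There was no untreated skin and no other body site among these libraries, so neither the effect of imiquimod nor a difference between body sites could be measured. Whether a library held cells of 1 mouse or of several is not given in the sources used here, and replicate spread may thus be partly technical.

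Depth was read from the summit pileup, the number of fragments stacked at the highest point of a peak, which was recovered from the peak lists. The median over the regions called in all 4 libraries was 30 to 54 fragments, and the replicate 2 libraries were the shallow ones of both genotypes, at 0.694 and 0.612 of the depth of WT 1. The weakest peaks called had 8 to 10 fragments, so a region without a call was not detectable at this depth rather than shown to be closed. Of 12 keratinocyte marker genes, 9 had a promoter region in all 4 libraries, and Krt5, Krt1 and Col17a1 in 2 or 3 of them. Of markers of other skin cells, 2 of 8 for fibroblasts, 3 of 5 for endothelium, 1 of 7 for immune cells and 3 of 5 for melanocytes were open in all 4 libraries. Of all coding genes, 55.3% had a promoter region in all 4 libraries. Among the markers without a promoter region in any library were Ptprc, Cd3e, Cdh5, Col1a2, Col3a1 and Sox10. Those with one in all 4 were Col1a1, Pdgfra, Pecam1, Tek, Tie1, Cd68, Dct, Pmel and Mlana. The part of such cells in the Hox results was not tested. Accessibility is a mean over the sorted cells, and fewer cells with an open site cannot be told apart from a site less open in each cell.

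Hox proteins bind DNA through a homeodomain and give cells their address along the body axis. Genes at the same place in different clusters are paralogues and share a number: group 1 lies at the 3′ end of a cluster and is used toward the head, and group 13 lies at the 5′ end and is used toward the tail and the tips of the limbs. Skin is a tissue in which the set of active Hox genes is known to differ by body site, most clearly in dermal fibroblasts, while Polycomb complexes keep unused stretches of the clusters silent. Hoxc13 stands outside this positional role in skin, as it is needed for hair and nail keratins.

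Stretches of 201 bases around 6 summits are shown, because they carry the motif matches that the text below refers to, at intergenic and intronic sites, at a 5′ promoter and at a retinoid-type repeat. They are from the plus strand of mm10, and capitals mark the motif match. The first lies upstream of the Hoxa7 starts used here (chr6:52221783-52221983) and the second in the noncoding gene Hoxd3os1 (chr2:74715852-74716052). Both have a match to the core of the motif of the insulator protein CTCF. The annotated Hoxa7 gene reaches to 52221854 and takes in the match of the first. The third lies beyond the 3′ end of Hoxc4 (chr15:103041677-103041877) with an AP-1 site, the site of Fos and Jun proteins. The fourth lies between Hoxb5 and Hoxb4 (chr11:96311217-96311417), where an AP-1 match and a match to the joint site of PBX and HOX proteins overlap. The fifth lies just before the start of Hoxd11 (chr2:74682100-74682300) and has a PBX-HOX match. The sixth lies in an intron of Hoxb3 (chr11:96341189-96341389) and has a direct repeat spaced by 5 bases (DR5), the type of site that retinoic acid receptors bind, beside a PBX-HOX match.
Upstream of Hoxa7: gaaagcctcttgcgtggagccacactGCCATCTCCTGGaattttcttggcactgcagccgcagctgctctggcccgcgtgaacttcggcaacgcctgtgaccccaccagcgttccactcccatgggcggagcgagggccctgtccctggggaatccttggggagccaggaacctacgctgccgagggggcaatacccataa
Hoxd3os1: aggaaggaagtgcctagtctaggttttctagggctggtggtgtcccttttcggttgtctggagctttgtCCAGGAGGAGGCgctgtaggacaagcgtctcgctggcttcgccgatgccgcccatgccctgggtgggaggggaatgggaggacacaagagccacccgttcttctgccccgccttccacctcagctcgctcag
Beyond Hoxc4: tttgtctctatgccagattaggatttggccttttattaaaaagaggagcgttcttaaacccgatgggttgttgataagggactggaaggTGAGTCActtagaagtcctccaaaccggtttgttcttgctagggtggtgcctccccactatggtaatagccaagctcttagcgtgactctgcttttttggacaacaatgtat
Hoxb5 to Hoxb4: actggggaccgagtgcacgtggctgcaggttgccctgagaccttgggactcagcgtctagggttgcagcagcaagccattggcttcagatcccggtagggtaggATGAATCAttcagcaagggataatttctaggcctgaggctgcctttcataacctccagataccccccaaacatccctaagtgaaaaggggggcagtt
Start of Hoxd11: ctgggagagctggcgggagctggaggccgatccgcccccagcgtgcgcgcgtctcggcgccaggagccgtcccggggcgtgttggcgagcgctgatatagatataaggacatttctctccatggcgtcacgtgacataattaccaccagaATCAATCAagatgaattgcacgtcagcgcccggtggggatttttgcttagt
Hoxb3 intron: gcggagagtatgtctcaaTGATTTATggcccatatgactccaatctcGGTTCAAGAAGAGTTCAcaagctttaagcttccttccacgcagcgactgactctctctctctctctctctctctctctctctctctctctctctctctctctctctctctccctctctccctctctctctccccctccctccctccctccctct

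Few Hox promoters were open in every library. A promoter was called open in a library when a peak lay within 2 kb of an annotated start site of the gene. By this rule 11 of the 38 genes (28.9%) were open in all 4 libraries, against 55.3% of all coding genes, 12 were open in 1 to 3 libraries, and 15 (39.5%) in none, against 35.3% of all coding genes. Of the 38 start regions, 26 were rich in CpG, the type of promoter that is usually open, and 7 of those (26.9%) were open in all 4 libraries, against 84% of the 11788 CpG-rich coding promoters. The definition of CpG-rich was added after the data had been seen. The 12 CpG-poor Hox promoters were open in all 4 libraries in 4 cases (33.3%), against 22.1% of CpG-poor coding promoters. These shares are descriptions of the 38 genes, without a test.

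The open promoters lay mostly on the 3′ side of the clusters. Among paralogue groups 1 to 8, which hold 22 of the genes, 9 were open in all 4 libraries, 7 in some and 6 in none. Among groups 9 to 13, with 16 genes, 2 were open in all 4 libraries, 5 in some and 9 in none. Both genes of group 1 analysed here, Hoxb1 and Hoxd1, were open in all 4 libraries, and no gene of groups 7, 9, 10 or 12 was. The exceptions at the 5′ side were Hoxc13 and Hoxd11. Numbers of open promoters followed depth, with 20 and 17 in the WT libraries and 21 and 14 in the Mapk8-KO libraries (replicates 1 and 2 in this order, here and in what follows).

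**Figure D1:**
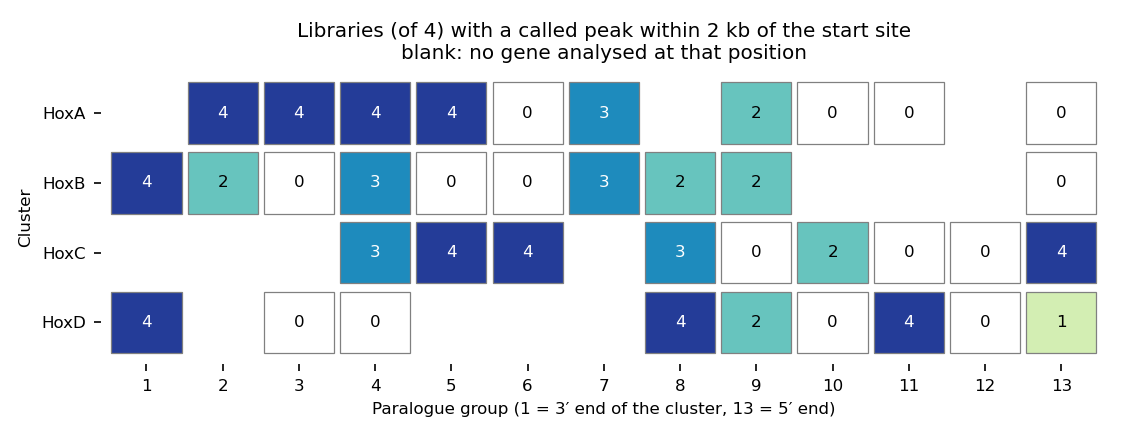
Number of libraries, of 4, with a called peak within 2 kb of a start site, by cluster (rows) and paralogue group (columns, 3′ to 5′); darker cells mark more libraries and empty positions had no gene analysed. The 11 cells with 4 libraries lie in groups 1 to 6 and 8, apart from Hoxd11 and Hoxc13.

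The windows were not empty of peaks. They held 7.44 regions per 100 kb, against 3.03 over the chromosomes as a whole, and 22 of the 48 regions (45.8%) were called in all 4 libraries, against 48.6% of all regions. A further 4 were called in 3 libraries, 12 in 2 and 10 in 1. The 26 regions short of 4 calls were mostly weak, with a median of 16 fragments in their best library, but one at Hoxa7 reached 43. Of the 26, 6 were called in both replicate 1 libraries alone, 12.5% of the Hox regions against 7.91% of all regions. None was called in the replicate 2 libraries alone. Those 6 regions follow the depth of the libraries, and whether depth set them was not tested.

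**Figure D2:**
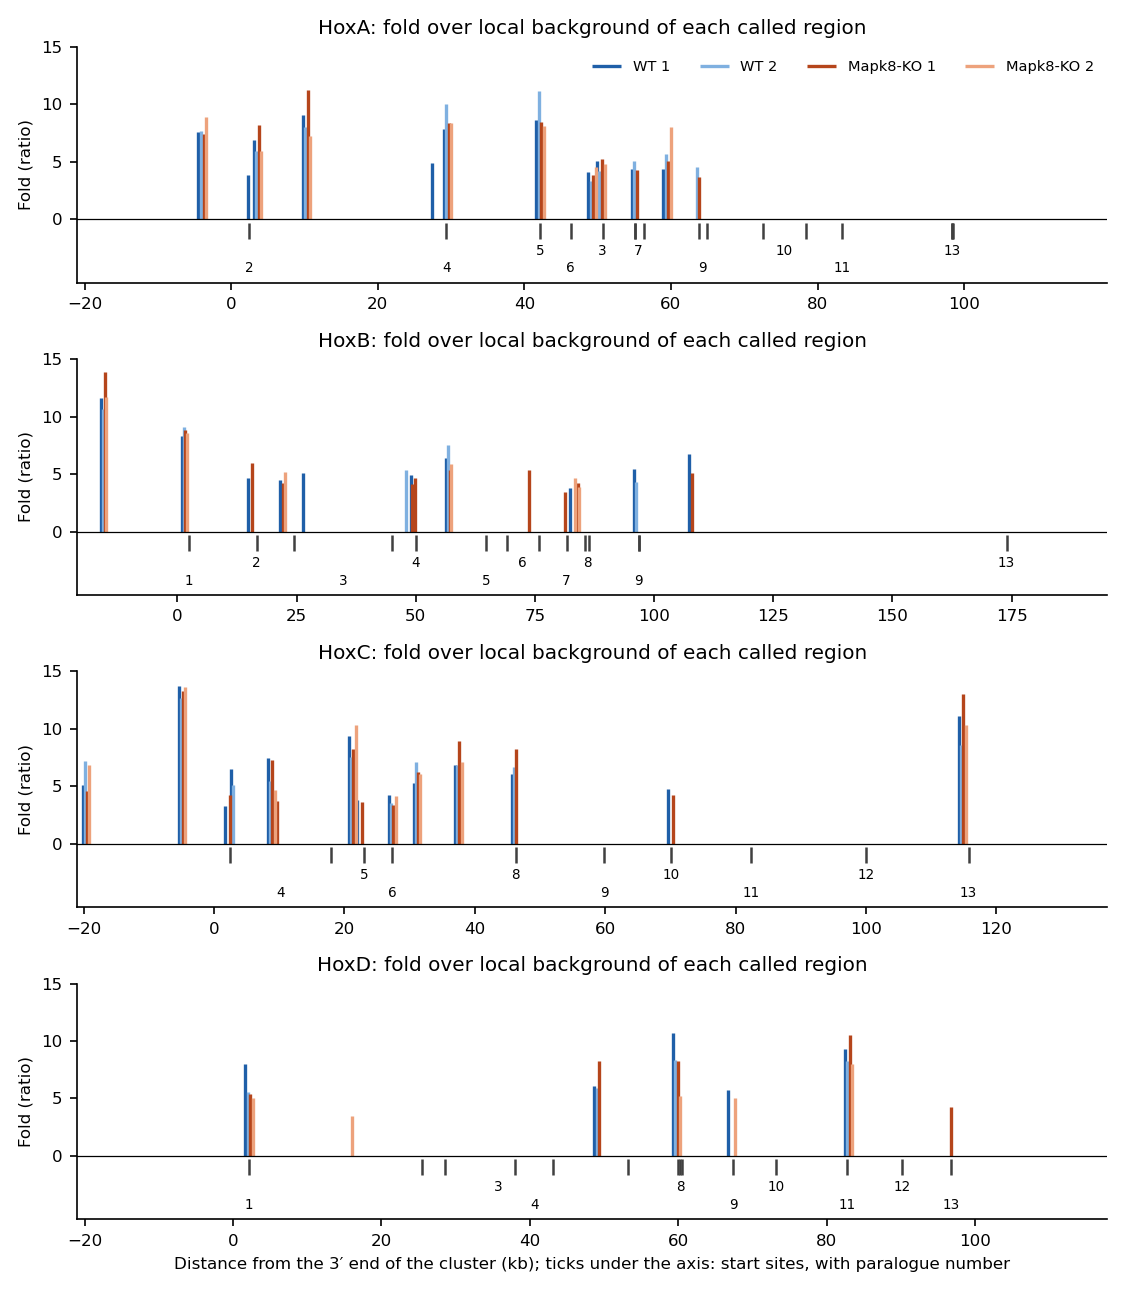
Fold enrichment over local background (vertical axis, a ratio) of every called region in each library along the 4 clusters, by distance in kb from the 3′ end of the cluster; ticks below the axis are start sites with their paralogue number. Peaks crowd at the 3′ and middle parts of HoxA, HoxB and HoxC, whereas in HoxD the longest bare stretch, 33.2 kb, holds starts of Hoxd3 and Hoxd4. Long stretches around groups 10 to 13 of HoxA and around Hoxb13 have no peak in any library.

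Long stretches at the 5′ ends had no peak in any library. In HoxA nothing was called over 54.6 kb from the peak at Hoxa9 past Hoxa10, Hoxa11 and Hoxa13, the genes of distal limb and tail, to the window's edge. In HoxB the 86.1 kb around Hoxb13 were without a peak. In HoxC the stretch with Hoxc12 and Hoxc11, 44.3 kb long, was bare between the open Hoxc13 and a weak peak at Hoxc10. In HoxD the longest bare stretch was not at the 5′ end but held start sites of Hoxd3 and Hoxd4, over 33.2 kb. It lies between regions in the noncoding genes Hoxd3os1 and Haglr.

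HoxA was the cluster with the largest share of its window under peaks, 2.58% to 4.49% by library. Hoxa2, Hoxa3, Hoxa4 and Hoxa5 were open in all 4 libraries. Hoxa5, needed for the neck and upper thoracic skeleton and the lung, had the highest mean pileup of the member promoters, 45.5 fragments, with 49 and 44 in WT and 55 and 34 in Mapk8-KO. In Mapk8-KO 1 Hoxd11 stood higher, and in Mapk8-KO 2 Hoxc5. Peaks at the Hoxa5 start covered 905 and 373 bp in WT and 613 bp, in 2 peaks, and 326 bp in Mapk8-KO.

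Hoxa4 had 25 and 26 fragments in WT and 30 and 24 in Mapk8-KO, before any adjustment for depth, at widths of 514 to 532 bp in all 4 libraries. Hoxa2, the most anterior HoxA gene described here, had 26 and 14 fragments in WT and 32 and 15 in Mapk8-KO in a region 950 bp upstream, which also lay 107 bp from the start of the noncoding gene Hoxaas2. The annotated start of Hoxa3 lies between those of Hoxa6 and Hoxa7, at the 5′ end of a gene model that spans Hoxa4, Hoxa5 and Hoxa6, and carried 45 and 23 fragments in WT and 52 and 28 in Mapk8-KO. A second region 996 bp away had 31, 15, 33 and 23. Regions called for Hoxa3 were therefore peaks of the middle of the cluster, and the Hoxa6 start beside them had none within 2 kb.

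Hoxa7 was called in 3 libraries, at 37 and 29 fragments in WT and 43 in Mapk8-KO 1, and missed in Mapk8-KO 2. With peaks anywhere over the gene counted, Hoxa7 was open in all 4 libraries, through the region upstream of its starts. Hoxa9 was at 16 in WT 2 and 20 in Mapk8-KO 1 and was not called in the others. Calls at these 2 genes did not follow genotype.

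HoxB was the weakest cluster, with 3 of its 15 regions called in all 4 libraries. Hoxb1, used in the hindbrain, was the 1 HoxB gene open in all 4, with 25 and 22 fragments in WT and 30 and 21 in Mapk8-KO, in an intron 680 bp from its start. Hoxb4 was covered by 3 separate small peaks, at 18 fragments in WT 1 and 16 in Mapk8-KO 1 next to its start, 14 in Mapk8-KO 1 farther in and 13 in WT 2 at 1554 bp. Thus 3 libraries called Hoxb4, but no region of it was shared by more than 2.

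The same held for Hoxb7, where WT 1 and Mapk8-KO 2 shared a peak of 11 fragments 1019 bp before the start and Mapk8-KO 1 had another, also at 11, 381 bp after it. Hoxb2 was called in the replicate 1 libraries, at 14 in WT 1 and 20 in Mapk8-KO 1. Hoxb8 and Hoxb9 were called in 1 genotype each and are taken up with the genotypes. Hoxb3, Hoxb5, Hoxb6 and Hoxb13 had no promoter peak in any library.

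HoxC was open at its middle and at its far 5′ gene. Hoxc13 carried 44 and 22 fragments in WT and 55 and 31 in Mapk8-KO, in an intron 463 bp from the start, at widths of 537 to 651 bp. Its fold over local background was 11.1 and 8.58 in WT and 13 and 10.3 in Mapk8-KO. This height set it apart from its neighbours Hoxc12 and Hoxc11, which had no peak.

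Hoxc6 was weak, with 21 and 12 fragments in WT and 20 and 16 in Mapk8-KO over its start. At the start of Hoxc5 a peak was called in the replicate 1 libraries only, at 21 and 24 fragments. The stronger region that made Hoxc5 open in all 4 libraries, with 46 and 29 fragments in WT and 49 and 38 in Mapk8-KO, lay 1611 bp downstream and 516 bp from the microRNA gene Mir615, which sits inside Hoxc5. Hoxc8, a thoracic gene, was called in 3 libraries at 18, 16 and 28 and was missing in Mapk8-KO 2, and Hoxc10 in the replicate 1 libraries at 14 each. At Hoxc4 a region over a start was called in the replicate 1 libraries, at 11 in WT 1 and 14 in Mapk8-KO 1, and another beside it in both WT libraries. Hoxc9 had no promoter peak.

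HoxD had few peaks, 7 in its window, of which 3 were called in all 4 libraries and each sat at a gene start. Hoxd11 was the strongest, with 46 and 27 fragments in WT and 57 and 26 in Mapk8-KO, at widths of 785 to 979 bp. Hoxd8 had 35 and 22 in WT and 28 and 15 in Mapk8-KO. Hoxd1 had 24 and 13 in WT and 18 and 12 in Mapk8-KO. Hoxd9 was called at 17 in WT 1 and 12 in Mapk8-KO 2, and Hoxd13 at 14 in Mapk8-KO 1 alone, while Hoxd3, Hoxd4, Hoxd10 and Hoxd12 had none.

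**Figure D3:**
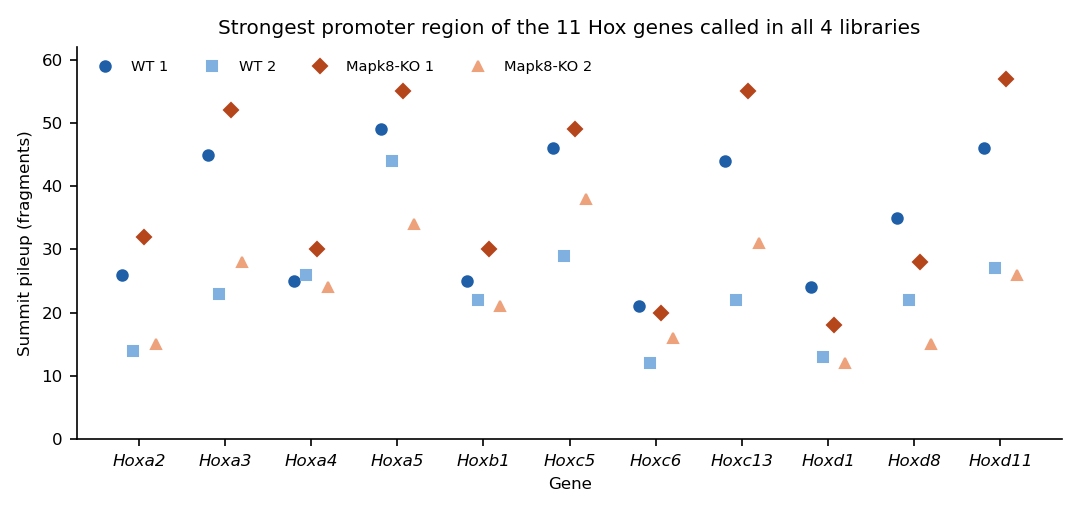
Summit pileup (fragments, not adjusted for depth) of the strongest promoter region of the 11 Hox genes open in all 4 libraries; each point is 1 library. The replicate 1 libraries lie above the replicate 2 libraries of their genotype at 10 of the 11 genes, the exception being Hoxa4 in WT.

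Even the open Hox promoters were of modest pileup. Ranked by mean pileup among the coding promoters open in all 4 libraries, they lay between percentile 2.1, Hoxd1, and percentile 41.2, Hoxa5. Hoxc5 at 34.4, Hoxd11 at 32.5, Hoxc13 at 31 and Hoxa3 at 29.7 came next, and Hoxc6 at 2.42 was near the bottom. All 11 were thus below the middle of the open coding promoters by pileup. By fold, among all regions called in all 4 libraries, the Hox promoter regions had median percentiles of 38.8 and 41.1 in WT and 39.5 and 34.7 in Mapk8-KO. Some stood higher by fold, such as Hoxc13 at 69 and 48.9 in WT and 81.8 and 72.4 in Mapk8-KO. The values give no order for neighbours such as Hoxd11 and Hoxc13, whose means of 39 and 38 fragments differ by less than their replicates.

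The local background of the peaks was also compared. It is the fragment density that the peak caller expected around a summit, set here against the lowest value in the same library, and it counts the fragments of the peak itself and of its neighbours. Within HoxA from Hoxa2 to Hoxa9, it was highest in the middle. At the 2 regions of the Hoxa3 start, at Hoxa7 and upstream of Hoxa7 it stood at 2.49 to 3.76 times the lowest value in every library that called them. These values reached percentile 71.1 to 87.3 among the regions of their library, although the peaks themselves had folds of 3.32 to 8.02. It was lower on the 5′ side at Hoxa9, at 1.79 and 1.87, and fell on the 3′ side to 1.98 to 2.23 at Hoxa5 and 1.06 to 1.27 at Hoxa4.

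In HoxC between Hoxc8 and Hoxc5, 5 regions stood at 1.63 to 2.37, percentile 50.1 to 71.6 among the regions of their library. The median over all regions called in all 4 libraries was 2.04 and 1.88 in WT and 1.89 and 1.71 in Mapk8-KO. Hoxd11 was the highest of HoxD, at 1.9 and 1.56 in WT and 1.79 and 1.52 in Mapk8-KO, percentile 47.9 to 59.5. HoxB was at or near the lowest value throughout, from 1 to 1.33. These HoxA and HoxC regions lie close together, and how much of their background comes from neighbouring peaks was not tested.

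**Figure D4:**
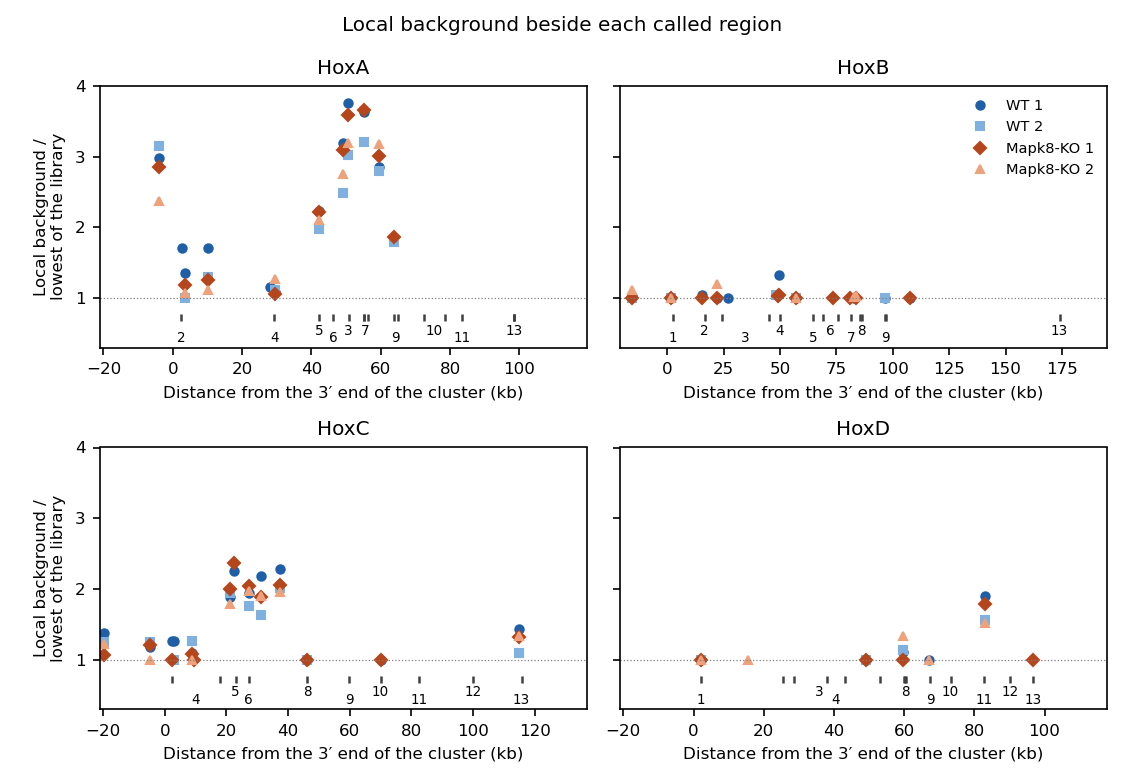
Local background at each called region divided by the lowest background of the same library (vertical axis, a ratio), by distance in kb from the 3′ end of each cluster; points are libraries and the dotted line is 1. Values of 2.49 to 3.76 around the Hoxa3 and Hoxa7 starts contrast with values of 1 to 1.33 along HoxB.

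Several of the tallest Hox regions lay outside the promoters of the members. Some of these regions were within 2 kb of the start of another gene, such as Gm15050 or Hoxd3os1. Of the 17 regions outside member promoters, 10 (58.8%) were called in all 4 libraries, against 12 of the 31 (38.7%) within 2 kb of a member's start. The region 7137 bp from Hoxc4 had 47 and 36 fragments in WT and 53 and 34 in Mapk8-KO and the highest fold of the HoxC window, 12.7 to 13.7. The region 17577 bp from Hoxb1 had 36 and 26 in WT and 48 and 31 in Mapk8-KO, above the HoxB promoters in each library. The region between Hoxb5 and Hoxb4 followed in HoxB, with 19 and 18 in WT and 18 and 14 in Mapk8-KO.

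A wide intronic region shared by the overlapping annotations of Hoxc5 and Hoxc6, 859 to 999 bp by library, had 39 and 27 fragments in WT and 54 and 28 in Mapk8-KO. In HoxA, an exon of Hoxa3 that lies 44 bp from the start of the noncoding gene Gm15050 had 41 and 23 in WT and 46 and 19 in Mapk8-KO. In HoxD the Hoxd3os1 region with the CTCF core had 18 and 14 in WT and 28 in Mapk8-KO 1, and no call in Mapk8-KO 2. The Haglr region was called in Mapk8-KO 2 alone, at 8 fragments.

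The Hox regions were rich in GC and CpG. Their median GC content was 58.4%, against 49.4% over all regions, and the median ratio of observed to expected CpG was 0.692 against 0.241. Promoter regions as a whole were close to them, at 58% and 0.613. The regions were 524 bp wide in the median, against 410 bp.

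Motifs were searched within 100 bp of the strongest summit on both strands. The AP-1 letters TGANTCA, which read the same on both strands, were found at 4 of 48 Hox regions (8.33%), against 29% of all regions and 14.7% of promoter regions. They stood at the region beyond Hoxc4, 8 bp from its summit, between Hoxb5 and Hoxb4, at Hoxc10 and near the noncoding gene Gm53 in HoxB. The MEIS letters TGACAG were found at 4 (8.33% against 16.6%).

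The CTCF core (CCA, AG and GGC in this order, with 2 free bases between neighbours) was found at 2 (4.17% against 4.62%), upstream of Hoxa7 and at Hoxd3os1. PBX-HOX letters TGATTNAT were found at 3 (6.25% against 4.97%), and the site between Hoxb5 and Hoxb4 overlaps the AP-1 match there. The DR5 repeat, NGNTCA written 2 times with 5 free bases between, was found at 2 (4.17% against 0.587%), in the Hoxb3 intron printed above and at the outer edge of the HoxC window. The Hoxb3 site was called in WT 1 alone, at 15 fragments. A match is a description of letters and does not show binding.

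Whether the Hox clusters differed between WT and Mapk8-KO keratinocytes was asked by calls, by ranks and by depth-adjusted pileup. Few regions were called in 1 genotype. WT-specific regions, called in both WT and no Mapk8-KO library, were 2 of 48 (4.17%, against 2.17% of all regions). They were an exon of Hoxb9, 150 bp from its start, with 16 and 10 fragments, and an intron of Hoxc4, 342 bp from a start, with 23 and 12. The 1 Mapk8-KO-specific region (2.08%, against 1.65% of all regions) was an exon of Hoxb8 with 14 and 9 fragments. Their lower values, 10, 12 and 9 fragments, were close to the weakest peaks called, so absence of these sites in the other genotype cannot be told apart from a level just under detection. Without Mapk8-KO 2 there were 6 Mapk8-KO-specific regions (12.8%, against 10.3% of all regions). There were 5 WT-specific ones without Mapk8-KO 1 (11.1%, against 13.2%) and 5 without WT 2 (10.6%, against 11.5%), so these counts stayed near the shares of all regions.

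None of the 22 regions called in all 4 libraries was ranked apart by genotype. A region counted as ranked apart when its lowest percentile of fold in one genotype was at least 10 points above its highest in the other, which 4.65% of all such regions met toward WT and 4.07% toward Mapk8-KO. The nearest were the region beyond Hoxb1, 9.21 points higher in Mapk8-KO, the Hoxc5 and Hoxc6 intron, 8.57 points higher in Mapk8-KO, and Hoxd8, 8.02 points higher in WT. Ranked by −log10 p instead of fold, these 3 passed, at 12, 10.2 and 11.9 points, 3 of the 22. By that ranking 5.03% of all regions were higher in WT and 4.48% in Mapk8-KO.

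By depth-adjusted pileup no Hox region passed the test between the genotypes. With limma over all 40159 regions and Benjamini-Hochberg adjustment, 0 of the 22 Hox regions were called, against 0.605% of all regions, and 1 (4.55%) had an unadjusted p under 0.05, against 11.3% of all regions. The median log2 difference, Mapk8-KO minus WT, was 0.12 over the Hox regions and 0.05 over all regions, and 15 of the 22 were above 0. Median depth-centred levels of the 22 regions were −0.573 and −0.564 in WT and −0.477 and −0.353 in Mapk8-KO on the log2 scale. The median log2 difference was 0.01 without Mapk8-KO 2, 0.06 without WT 1 and 0.24 without Mapk8-KO 1.

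The largest difference was 2821 bp upstream of the nearest Hoxa7 start used here, at the region with the CTCF core printed first. Its pileup was 30 and 29 in WT and 43 and 47 in Mapk8-KO, and after centring for depth −0.71 and −0.23 in WT and −0.33 and 0.65 in Mapk8-KO on the log2 scale. The groups overlapped, and Mapk8-KO 2 stood above the other 3. The log2 difference was 0.63 ± 0.26 (SE, adjusted p = 0.296 by limma). The difference rested on Mapk8-KO 2: it was 0.14 without that library (adjusted p = 0.994 by limma) and 1.12 without Mapk8-KO 1 (adjusted p = 0.00651 by limma). It was 0.39 without WT 1 and 0.87 without WT 2. In each of these fits the lone library of a genotype was assumed to vary like the others.

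Hoxc13 came next, with a log2 difference of 0.43 ± 0.25 (SE, adjusted p = 0.536 by limma) and no overlap between the groups. It was 0.19 without WT 2, 0.66 without WT 1 and 0.23 with GC content taken out. Hoxd8 was the lowest, at −0.42 ± 0.30 (SE, adjusted p = 0.625 by limma), also without overlap. The second region of the Hoxa3 start stood at 0.37 ± 0.29 and the region beyond Hoxb1 at 0.35 ± 0.26 (SE, adjusted p = 0.676 and 0.639 by limma). The former was 0.11 without WT 2, 0.63 without WT 1, 0.21 without Mapk8-KO 2 and 0.24 with GC content taken out. Both Mapk8-KO libraries lay above both WT libraries at 4 of the 22 regions (18.2%, against 24.6% of all regions) and below them at 1 (4.55%, against 16.9%). These shares were no larger than those of all regions. With 2 libraries a group, the standard errors of 0.22 to 0.33 on the log2 scale leave room for differences that could not be called.

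**Figure D5:**
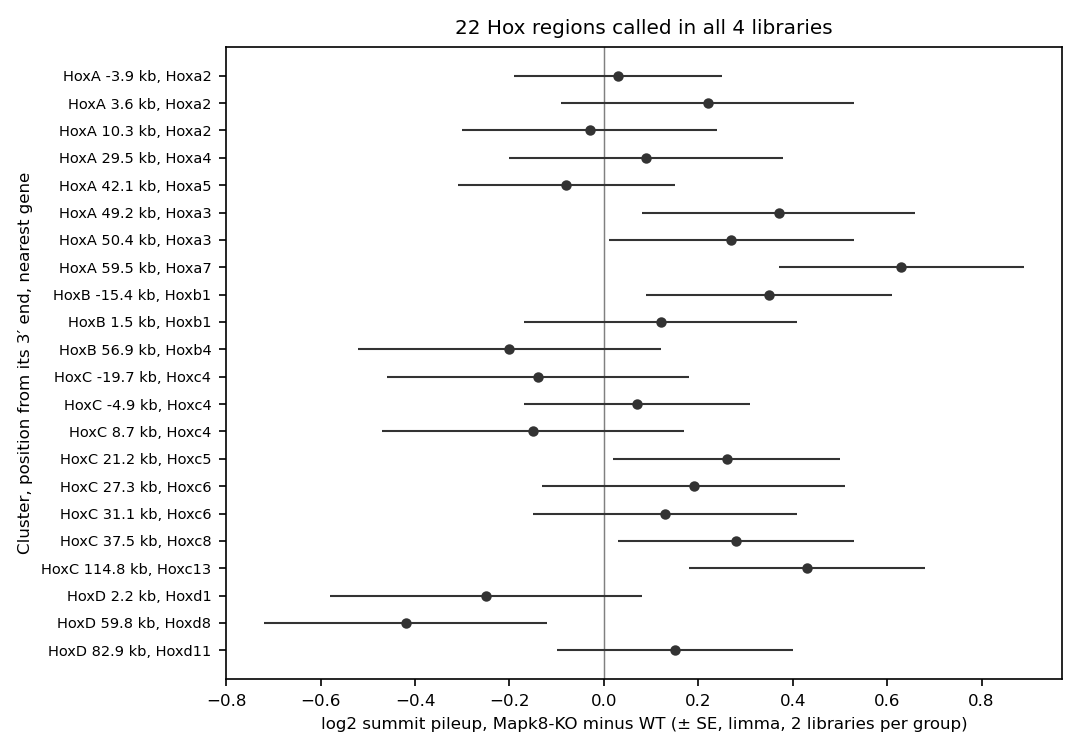
Difference in log2 summit pileup, Mapk8-KO minus WT, with SE from limma (2 libraries per group), for the 22 Hox regions called in all 4 libraries, labelled by cluster, position from its 3′ end and nearest member. Points run from −0.42 at Hoxd8 to 0.63 upstream of Hoxa7, and none had an adjusted p under 0.05.

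Genes that work with or on the Hox genes were mostly open. Of 11 genes of TALE homeodomain proteins, which bind DNA together with Hox proteins, 8 (72.7%) were open in all 4 libraries. The shares were 55.3% of coding genes and 84% of CpG-rich coding promoters. The genes listed here were not sorted by CpG content. Meis1 had 117 and 80 fragments in WT and 137 and 82 in Mapk8-KO, and Tgif1 had 95 and 76 in WT and 120 and 78 in Mapk8-KO. Both stood well above every Hox promoter in each library. Pbx4, at 30 and 16 in WT and 28 and 17 in Mapk8-KO, stood within the range of the open Hox promoters. Meis3, Pbx2 and Tgif2 were called in 1, 2 and 3 libraries.

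Polycomb subunits were open in all 4 libraries in 13 of 14 cases (92.9%, against 55.3% of coding genes). Among them was Ezh2, the methyltransferase of the repressive complex, with 102 and 70 in WT and 107 and 82 in Mapk8-KO. The exception, Pcgf2, was called in both replicate 1 libraries alone. Trithorax and retinoid genes were open in 8 of 11 cases (72.7%), including Kmt2a and the retinoic acid receptors Rara, Rarb and Rarg. Crabp2 and the retinoic acid-degrading Cyp26a1 had no peak. Of the ParaHox genes and the even-skipped homologues Evx1 and Evx2, which flank the 5′ ends of HoxA and HoxD, 0 of 8 were open in all 4 libraries. Of these 8 genes, 7 had no peak in any library, against 35.3% of coding genes, and Gsx1 was called in both WT libraries.

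Of 24 noncoding genes inside the clusters, 4 (16.7%) were open in all 4 libraries (Gm15050, Gm28309, Hoxaas2 and Mir615), against 23.8% of the 11995 noncoding genes of the same biotypes, each by a region already described for a Hox gene or exon. Hotair, the HoxC noncoding RNA known from distal skin fibroblasts, had no peak in any library, nor had Mir10b or the 3 Mir196 genes. Mir10a was called in both replicate 1 libraries. Among 16 other regional identity factors 6 were open in all 4 libraries, 37.5% against 55.3% of coding genes. One was Dlx5, with 157 and 116 in WT and 166 and 92 in Mapk8-KO. Another was the limb and trunk factor Tbx3, with 121 and 90 in WT and 121 and 81 in Mapk8-KO. The limb identity genes Tbx4 and Tbx5 had no peak.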

How the data were processed

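ATAC-seq peak lists of 4 libraries were used as deposited. The authors aligned paired reads to mm10 with Bowtie2, per the methods, and called peaks with MACS2 in each library, without a control and not on pooled libraries. A shift of read ends for Tn5 is not stated. The deposited columns hold a fold enrichment of the summit over local background (a ratio), −log10 p and −log10 q values, a score made from the q value, and the summit offset. The highest q in the deposited lists was 0.0097. Read totals were not used here, and the depth is known only from recovered pileups.

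Pileup and local background at each summit were solved from the deposited fold and −log10 p, and at least 99.996% of peaks per library came out within 0.05 of a whole fragment number. Low pileups are coarse, and values cover counting of fragments that may include PCR copies. Log2 pileup of the regions called in all 4 libraries was centred on each library's median and tested with limma 3.58.1 (R 4.3.3) with a variance trend. Both steps were tested on simulated data. Other steps used Python 3.11.15 with pandas 2.3.3 and pysam 0.24.0. Start sites were the 77198 of the GENCODE basic annotation, and sequence came from the GRCm38 RefSeq assembly. CpG-rich promoters had over 50% GC and an observed to expected CpG ratio over 0.6 within 250 bp of a start. Alternatives were a stricter q, other promoter distances, flanks and rank gaps, lists of equal length, fold in place of pileup, a pseudocount of 5, quantile normalization, a pileup filter, GC correction, a replicate block and leaving out each library.

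The members, gene lists, motifs and tests were chosen with earlier results of these data known. Named by rule were every member with its highest promoter region, and regions called, ranked apart or specific to a genotype. Also named were the 2 regions per cluster outside member promoters with the highest mean fold. Regions named for a difference that missed these thresholds, among them the region upstream of Hoxa7, were chosen after their values were seen. 1 Hox gene is not reported here, and 1 HoxA region that the rule names is counted and plotted but not described. Of samples sharing a replicate number, deviations were not correlated (r = 0.0393 across regions), so the numbers were not taken as pairs.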

Additional observations from a re-analysis of the deposited data

How the results depend on the processing

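Of 67 alternative values of 7 results, 47 stayed close to the reported value by a loose rule, which took 34 regions in place of 48 as close. Only the median log2 difference has a sign, and it stayed positive. Without Mapk8-KO 2 it was 0.0121 over the Hox regions and 0.0256 over all regions. The number of promoters open in all 4 libraries ran from 8 to 13 under other definitions and from 11 to 15 with a library left out, where Hoxa7, Hoxb4, Hoxc4 and Hoxc8 were gained without Mapk8-KO 2. Within 0.5 kb, Hoxa2, Hoxb1 and Hoxc5 were no longer open in all 4. The Mapk8-KO-specific region was lost with lists of equal length and at a q of at most 0.001 (0 in both cases). The WT-specific count was 1 with lists of equal length and 1 when peaks had to cover 0.5 of a region. The median log2 difference was 0.23 among regions with a mean pileup of at least 30. Regions past the rank gap were 3 of 22 when −log10 p was ranked and 3 of 22 at a gap of 5 points. Over all 40159 regions ranked, these counts were 3819 and 6937. With each library left out in turn, Mapk8-KO-specific regions ran from 1 to 6 and WT-specific regions from 2 to 5. Over all regions these shares ran from 2.26% to 10.3% and from 2.61% to 13.2%. Regions past the rank gap ran from 3 to 8 in the Hox windows and from 9709 to 12711 over all regions. The median log2 difference over the Hox regions ran from 0.01 to 0.24. The causes were not tested, beyond the looser rule that fewer libraries bring.

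With the replicate number as a block, 0 Hox regions differed, and 386 regions of the whole table did in place of 243. With the block and a GC correction these counts were 0 and 452. Over the whole table other settings gave 0 calls (fold in place of pileup, with 2731 at an unadjusted p under 0.05, and no variance trend, with 3987), 29 (quantile normalization), 70 (pileup filter), 92 (GC correction), 113 (pseudocount) and, chosen after seeing the data, 91 (median ratio depth). Without WT 1, WT 2, Mapk8-KO 1 or Mapk8-KO 2 they were 28, 6, 1717 and 21. The weakest peaks called, at 8 to 10 fragments, set what could be detected.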
